A study of Homo sapiens with 3 samples.

Results

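The genes described here are the D cyclins CCND1, CCND2 and CCND3, the G1 kinases CDK4, CDK6 and CDK2, the inhibitors CDKN2A, CDKN2B and CDKN1B, and the retinoblastoma gene RB1. They are 10 of 17614 gene symbols with a probe on the array, and they were chosen by name, with every probe annotated to them, 11 in all. Total RNA of HSC-3, a line from a human tongue cancer, was measured in 3 conditions on 1-colour microarrays, with 1 array per condition. Parental HSC-3 cells carried no shRNA. Cells called shScr expressed a scrambled, non-effective shRNA (short hairpin RNA), and cells called shDKK3 expressed shRNA against human DKK3. In both lines the shRNA came in a lentiviral GFP vector, with virus made in HEK293 cells, and puromycin was in the medium. The medium held fetal bovine serum in all conditions. Vector, virus and puromycin cannot be told apart from the hairpin in any comparison with parental cells, and the labels do not say whether either shRNA line was a pool or a clone. With no replicates there is no test and no p-value, and each difference is between arrays, not between conditions.

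As background, the D cyclins bind and activate CDK4 and CDK6 when growth factors push a cell through G1. These kinases phosphorylate the retinoblastoma protein, which then lets go of the E2F factors that switch on the genes of DNA replication. CDK2 with cyclin E or A completes the step. The INK4 proteins p16 (CDKN2A) and p15 (CDKN2B) block CDK4 and CDK6, and p27 (CDKN1B), of the CIP/KIP family, blocks CDK2 complexes. In squamous carcinoma of the head and neck, CCND1 at 11q13 is often gained and CDKN2A at 9p21 is often lost.

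The promoter windows of 3 members whose signal differed between arrays are shown for the letters around their starts. RefSeq windows of 300 bases (250 before the start and 50 after it, GRCh38.p14) were held for 7 of the 10 genes, and CCND1, CCND2 and CDK2 were not among them. The window for RB1 lies at a start far inside the gene and is not shown. The window for CDK4 is shown because shDKK3 gave a higher signal than shScr, and that for CDK6 because its signal was lower there. CDKN2A is shown at both of its best-known starts, because the distal one gives p14ARF and the proximal one p16INK4a, and the array annotation does not say which transcript its probe reads. Capitals mark matches, on either strand, to GGGCGG (the GC box of SP1 factors), TTTNNCGC (E2F), CACGTG (the E box of MYC), TGACGTCA (the cyclic AMP element), TGANTCA (AP-1) and TATAAA (the TATA box).
CDK4, chr12:57752261-57752560, minus strand: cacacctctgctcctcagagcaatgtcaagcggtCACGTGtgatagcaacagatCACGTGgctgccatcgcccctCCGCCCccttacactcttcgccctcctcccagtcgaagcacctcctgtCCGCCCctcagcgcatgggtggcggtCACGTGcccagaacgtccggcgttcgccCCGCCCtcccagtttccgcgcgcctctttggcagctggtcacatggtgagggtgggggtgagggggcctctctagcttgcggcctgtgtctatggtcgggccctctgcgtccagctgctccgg
CDK6, outermost start, chr7:92836524-92836823, minus strand: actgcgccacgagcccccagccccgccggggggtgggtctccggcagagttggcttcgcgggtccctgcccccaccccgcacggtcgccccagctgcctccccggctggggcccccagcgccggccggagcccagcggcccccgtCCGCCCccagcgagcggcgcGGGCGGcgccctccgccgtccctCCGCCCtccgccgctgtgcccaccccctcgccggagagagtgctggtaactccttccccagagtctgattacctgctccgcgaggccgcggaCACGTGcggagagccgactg
CDKN2A, distal start, chr9:21995275-21995574, minus strand: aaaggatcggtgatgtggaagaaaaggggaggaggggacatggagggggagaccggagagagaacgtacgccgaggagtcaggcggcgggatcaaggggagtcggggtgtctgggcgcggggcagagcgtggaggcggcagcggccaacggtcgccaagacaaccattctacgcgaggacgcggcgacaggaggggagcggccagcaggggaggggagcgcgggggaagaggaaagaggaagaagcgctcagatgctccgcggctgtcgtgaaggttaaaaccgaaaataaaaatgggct
CDKN2A, proximal start, chr9:21974808-21975107, minus strand: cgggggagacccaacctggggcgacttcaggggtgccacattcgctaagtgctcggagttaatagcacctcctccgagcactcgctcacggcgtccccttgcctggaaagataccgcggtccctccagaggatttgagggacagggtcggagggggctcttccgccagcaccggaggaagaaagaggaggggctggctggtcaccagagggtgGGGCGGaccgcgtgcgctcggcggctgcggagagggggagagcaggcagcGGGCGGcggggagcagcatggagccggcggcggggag

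The CDK4 window held 3 matches to the E box, where 7.3% of 35116 windows of all genes held at least 1 and 0.094% held at least 3. The cut of 3 is the count in this window itself, for 1 of 6 motifs looked at. The CDK4 window also held 3 GC boxes, and the CDK6 window shown held 3 GC boxes and 1 E box. The other CDK6 window in the table, at a start inside the gene, held 0 matches to the 6 motifs. At CDKN2A the proximal window held 2 GC boxes and the distal window held 0 matches to any of the 6 motifs. GC boxes were found in 45.0% of all windows, at least 3 of them in 15.8%, and E2F matches in 6.9%. Such matches are letters in a window and were not set against binding data.

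Signal is given first as the authors' deposited normalised intensity, a linear scale on which each array has a median of 25 over its gene probes. Differences are on a log2 scale after the normalisation described under the processing, and 2-fold is a log2 difference of 1. Every one of the 11 probes lay above the detection limit on all 3 arrays, a limit set 2 SD over the mean of blank spots. Over all probes 78.5% were detected on parental, 80.1% on shScr and 81.3% on shDKK3. As a yardstick for each gene, the robust SD of the shScr minus parental difference was taken over the 500 genes nearest in expression. It holds the difference between the controls as well as noise. Levels of different probes are not comparable with each other.

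DKK3, the targeted gene, had deposited values of 309 on the parental, 226 on the shScr and 170 on the shDKK3 array. Its log2 difference to shScr was -0.39 and to parental -0.71, both short of 2-fold, and with the second deposited column subtracted they turned to 0.17 and 0.23. All 7 epithelial markers listed (KRT5, KRT14, KRT17, TP63, EPCAM, CDH1 and SFN) were detected on every array. Their summed deposited signal was 17222 on the parental, 18675 on the shScr and 51928 on the shDKK3 array. After normalisation KRT14 and KRT17 were at least 2-fold higher than on either control, while EPCAM was at least 2-fold lower. The list median was 0.45 against shScr and 0.35 against parental. Against shScr KRT5 was at 0.68, SFN at 0.18 and TP63 at -0.13. Of 6 fibroblast markers, 2 were detected on all arrays, and their summed signal ran from 114.3 to 148.1. Of 3 blood cell markers CD68 was detected on all arrays, with a list sum of 110.2 to 238.2, and the endothelial sum was 7.1 to 11.4. The fibroblast marker DCN had deposited values of 83.5 on the parental, 72.9 on the shScr and 92.0 on the shDKK3 array. PDGFRB, the other fibroblast marker detected on all arrays, was at 42.5, 38.6 and 48.6 in the same order. The fibroblast markers LUM and COL1A2, and PTPRC, the common leukocyte antigen, were above the limit on 0 of the 3 arrays. On the deposited scale the marker sums were highest on the shDKK3 array, while single epithelial markers went both ways. Their part in the differences below was not tested.

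Cyclin D1 had less signal on the shDKK3 array than on either control, by at least 2-fold. CCND1, the D cyclin most often gained in these tumours, had deposited values of 6034 on the parental, 4877 on the shScr and 2342 on the shDKK3 array. The controls lay close together and shDKK3 lay below both. After normalisation CCND1 was 3.47-fold lower than on shScr (log2 -1.79) and 3.19-fold lower than on parental (-1.67), against 0.12 between the controls and a robust SD of 0.38. Among 15148 genes compared with shScr, 47 were as low or lower, CCND1 included. Among 14962 compared with parental there were 20. Its size was the largest of the 10 genes in both comparisons, but not against shScr in every setting. In the deposited values its folds were 2.08 and 2.58, and CDK4, RB1 and CDKN2A were further from shScr. There 10.8% of all genes were at least 2-fold lower than on shScr, against 4.48% after normalisation. The ranks above hold for the normalised values only, and the rank of CCND1 in the deposited values was not taken. With scaling to the 75th percentile CDK4 was at 1.36 and CCND1 at -1.31 against shScr, and with the second deposited column subtracted at 1.26 and -0.42. In bulk RNA, fewer cells that express a gene and less RNA per cell cannot be told apart.

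**Figure D1:**
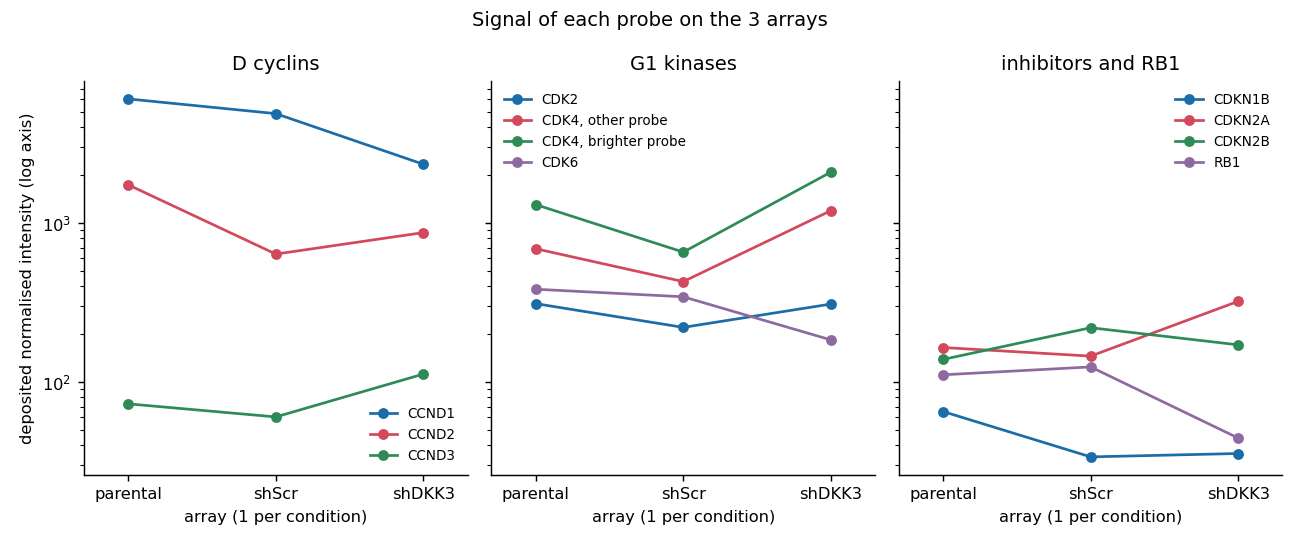
Deposited normalised intensity (log axis) of each of the 11 probes on the parental, shScr and shDKK3 arrays, 1 point per array, in panels for D cyclins, G1 kinases, and inhibitors with RB1. Lines only join the points of a probe, and heights of different probes are not comparable. CCND1, CDK6 and RB1 have their lowest point on shDKK3, while both CDK4 probes, CCND3 and CDKN2A have their highest there.

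Cyclin D2 had less signal on both shRNA arrays than on the parental array. CCND2, the D cyclin known from its induction by mitogens in many tissues, had deposited values of 1738 on the parental, 638 on the shScr and 871 on the shDKK3 array. Both shRNA arrays were low and the parental array was high. CCND2 was at -1.26 on shScr and at -1.15 on shDKK3 relative to parental, with a robust SD of 0.50. With the second deposited column subtracted, both turned, to 0.55 on shScr and 0.16 on shDKK3. Between shDKK3 and shScr it differed by 0.11, which turned to -0.13 with scaling to the median and to -0.01 with cyclic loess. Both differences to parental share that 1 array.

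Cyclin D3 went the other way from cyclin D1. CCND3, the D cyclin most widely expressed in differentiating tissues, had deposited values of 72.9 on the parental, 60.3 on the shScr and 112 on the shDKK3 array. Its log2 differences on shDKK3 were 0.59 against shScr and 0.50 against parental, with a robust SD of 0.30, and neither reached 2-fold. Before any scaling its spot brightness was 153.0 on parental, 165.9 on shScr and 163.7 on shDKK3, the blanks being at 55.7 on shScr and 46.9 on shDKK3. With the second deposited column subtracted, its differences were -0.05 against each control. The median gene probe stood 28.4 above the blanks on shScr and 18.2 on shDKK3.

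Of the kinase partners of cyclin D, CDK4 was at least 2-fold higher on shDKK3 than on shScr on both of its probes, while its close relative CDK6 was short of 2-fold lower. The brighter CDK4 probe had deposited values of 1306 on the parental, 656 on the shScr and 2089 on the shDKK3 array. The other CDK4 probe had 689, 428 and 1196. On both probes shScr was the lowest and shDKK3 the highest of the arrays. Relative to shScr the brighter probe was 2.26-fold higher on shDKK3 (log2 1.18) and the other 2.12-fold higher (1.08), with a robust SD of 0.50. Relative to parental they were at 0.35 and 0.56, and shScr itself lay below parental by -0.83 and -0.52. The 2-fold difference to shScr thus includes a lower CDK4 signal on the shScr array.

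CDK6 had deposited values of 383 on the parental, 344 on the shScr and 184 on the shDKK3 array. The controls differed by -0.04 after normalisation, and shDKK3 was below them by similar amounts, at -0.88 against shScr and -0.92 against parental. These are 1.84-fold and 1.89-fold, short of the threshold, beside a robust SD of 0.44. CDK6 passed 2-fold in 3 of 10 alternatives against shScr and in 5 of 10 against parental, where the deposited fold was 2.08, and with the second deposited column subtracted it was at -0.05 and -0.41. CDK2, the partner of cyclins E and A, had deposited values of 311 on the parental, 221 on the shScr and 309 on the shDKK3 array. It differed by 0.31 from shScr, turning to -0.07 with scaling to the median, and by -0.04 from parental, both inside its robust SD of 0.43.

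Of the INK4 inhibitors, CDKN2A had its highest signal on the shDKK3 array and CDKN2B on the shScr array. CDKN2A had deposited values of 165 on the parental, 145.5 on the shScr and 322 on the shDKK3 array, with the controls close together. Its differences on shDKK3 were 0.88 against shScr and 0.82 against parental, or 1.84-fold and 1.77-fold, with a robust SD of 0.37. Against shScr it passed 2-fold with subtraction of the blank mean (1.04) and in the deposited values (2.21-fold), and both differences turned, to -0.15 and -0.81, with the second deposited column subtracted. The unscaled spot was also brightest on shDKK3, at 382.1 against 283.1 on parental and 322.0 on shScr. CDKN2A was the member furthest above parental, and 321 of the 14962 genes were as high or higher. CDKN2A and CDKN2B are paralogs that share long stretches of sequence, and how far either probe reads the other gene is not given in the sources used here.

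CDKN2B, the neighbour of CDKN2A and a target of TGF-beta signalling, had deposited values of 139 on the parental, 219.5 on the shScr and 171 on the shDKK3 array. It was 0.64 higher on shScr than on parental, and shDKK3 lay between them, at -0.35 against shScr and 0.29 against parental. The robust SD was 0.36. CDKN1B, which encodes p27, had deposited values of 65.2, 33.8 and 35.5 in the order parental, shScr, shDKK3. Like CCND2 it was lower on both shRNA arrays than on the parental array, at -0.43 and -0.44 beside a robust SD of 0.21. Between shDKK3 and shScr it differed by -0.005. Its spots were at 1.70 to 2.62 times the detection limits, lowest on shDKK3, so the added offset shrinks its differences. In the deposited values it was 1.93-fold lower on shScr and 1.84-fold lower on shDKK3.

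RB1, the substrate through which the D cyclin kinases act, was dimmest on shDKK3. The deposited values were 111 on the parental, 124 on the shScr and 44.4 on the shDKK3 array. The controls were close together, 0.21 apart after normalisation. RB1 was at -0.996 against shScr, just short of 2-fold, and at -0.79 against parental, with a robust SD of 0.29. It passed 2-fold in 6 of 10 alternatives against shScr and in 3 of 10 against parental. With the second deposited column subtracted it was at -0.44 and -0.36. Of 15148 genes, 683 were as low or lower against shScr. In the deposited values RB1 was 2.80-fold lower than on shScr and 2.50-fold lower than on parental. Its spot on shDKK3 was at 1.89 times the detection limit, in the range where the offset shrinks differences. Against shScr RB1 was at -1.27 with an offset of 16 and at -1.50 with subtraction of the blank mean.

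**Figure D2:**
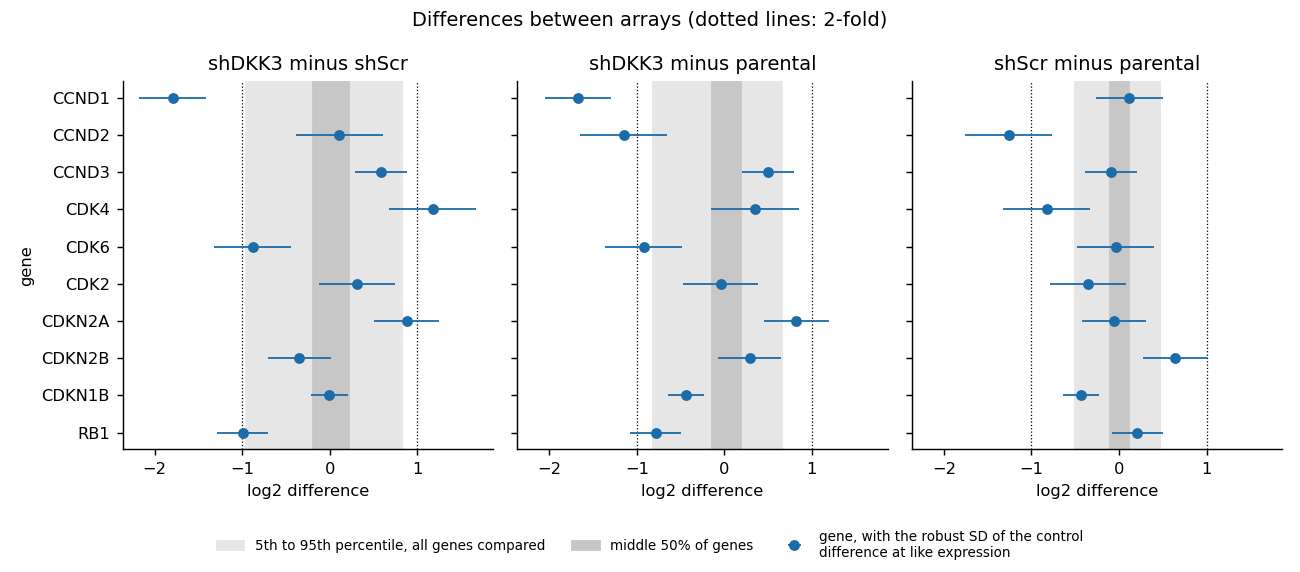
Log2 differences of the 10 genes (points) for shDKK3 minus shScr, shDKK3 minus parental and shScr minus parental. Bars are the robust SD of the control difference over 500 genes of like expression and not an error between replicates; grey bands span the 5th to 95th percentile and the middle 50% of all genes compared. CCND1 lies at -1.79 and -1.67 on shDKK3 and at 0.12 between the controls, while CCND2 and CDK4 also differ between the controls, at -1.26 and -0.83.

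Counted together, 2 of the 10 genes were at least 2-fold apart between shDKK3 and shScr, beside 7.44% of all genes, and 2 between shDKK3 and parental, beside 3.9%. Of these 1, CDK4, was at least 2-fold higher on shDKK3 than on shScr, against 2.96% of all genes, and 1, CCND1, was at least 2-fold lower, against 4.48%. Against parental, 0 members were 2-fold higher (0.862% of all genes) and 2, CCND1 and CCND2, were 2-fold lower (3.04%). Between the controls 0 members were 2-fold higher on shScr (0.404%) and CCND2 was 2-fold lower (0.983%). CCND1 was the member 2-fold below both controls, as were 2.05% of all genes. The members had a median of 0.05 against shScr and -0.24 against parental, beside 0.03 over all genes in both comparisons. Counts of 1 or 2 in 10 are too small to set the group apart from that background. By any amount, 3 members (CCND3, CDK4 and CDKN2A) lay above both controls, as did 48.2% of all genes, and 4 (CCND1, CDK6, RB1 and CDKN1B) lay below both, as did 33.5%. For CDKN1B the difference to shScr was -0.005.

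Gene length moved slightly with the differences. With genes in 4 equal groups by genomic span, the median against shScr was 0.10 in the shortest group and -0.03 in the longest. CDK6 spans 231.7 kb, RB1 178.1 kb and CCND3 115.1 kb, all in the longest group, and CDK6 and RB1 were lower while CCND3 was higher. With the running median over length removed, an alternative chosen after seeing the data, the differences to shScr were -0.86 for CDK6, -0.96 for RB1, -1.84 for CCND1 and 1.09 for CDK4.

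The genes nearest to CCND1 in pattern were ranked by the Euclidean distance of their differences (shDKK3 minus shScr and shScr minus parental) among 12909 genes detected on all 3 arrays, uncharacterised loci and provisionally named reading frames left out. The nearest was BZW1, a regulator of translation start, at a distance of 0.052, with -1.78 against shScr. USP1, a deubiquitinase that acts on PCNA, followed at 0.068 with -1.78. The golgin gene GOLGA4 was at 0.077 with -1.73, ERGIC2 of the ER-Golgi compartment at 0.083 with -1.80, and EPCAM, an epithelial adhesion molecule, at 0.095 with -1.72. A pattern over 3 arrays has only these 2 differences, so many genes can lie close.

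Other genes of the pathway were described from lists, 86 genes on the array besides the members. Counts below are after normalisation, where 2 list genes were 2-fold higher than on shScr and 6 lower. Over all genes 2.96% were 2-fold higher than on shScr and 4.48% lower. In the authors' table the list counts were 15 and 7, beside 14.8% and 10.8% of all genes. Of 7 other inhibitors and pocket proteins, 0 were 2-fold apart from shScr, with a median of 0.48. CDKN3, a phosphatase that acts on CDK2, was 2-fold lower than on parental (-1.26), but it was lower still on shScr (-1.74). CDKN1A, the p53-induced inhibitor p21, had deposited values of 364 on the parental, 318 on the shScr and 662 on the shDKK3 array and differences of 0.76 and 0.69 on shDKK3. CDKN2C had deposited values of 84.8 on the parental, 39.2 on the shScr and 84.4 on the shDKK3 array. In deposited values both were more than 2-fold higher than on shScr, as was CDKN1C, which was below the detection limit on shScr. All of these were named after their values were seen.

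Of 11 other cyclins, kinases and activators of the G1/S step, 0 were 2-fold higher and 3 were 2-fold lower on shDKK3 than on shScr, with a median of -0.16, beside 4.48% of all genes lower. Against parental 2 were 2-fold lower, with a median of -0.55, beside 3.04% of all genes. CDK1, the mitotic kinase annotated as CDC2, was at -1.43 against shScr and -1.76 against parental. CCNE2, the cyclin E2 partner of CDK2, was at -1.63 and -0.97. CCNH, cyclin H, was at -1.02 and -1.12.

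After normalisation the E2F factors, which the retinoblastoma protein holds in check, showed 0 of 10 genes 2-fold apart in either comparison. Their medians were 0.05 against shScr and 0.00 against parental. Over all genes 7.44% were 2-fold apart from shScr and 3.9% from parental. E2F2 was at 0.55 and 0.48 and E2F3 at -0.46 and -0.27. Both were dim on some arrays, where the added offset shrinks differences. In deposited values, in the order parental, shScr, shDKK3, E2F2 was at 28.8, 22.6 and 51.4 and E2F3 at 17.2, 22.2 and 7.7. There E2F2 was more than 2-fold higher than on shScr, and E2F3 more than 2-fold lower than on either control. The 25 E2F target genes of S phase on the array differed in both directions. Against shScr, 2 were 2-fold higher, the replication factor GINS4 (1.39) and the thymidine kinase TK1 (1.30), and 3 were 2-fold lower. These were CCNE2, which is on both lists, the sliding clamp PCNA (-1.33) and the primase subunit PRIM1 (-1.04), with a median of 0.18 over the list. Against parental 0 were higher and PRIM1 (-1.16) was lower, with a median of -0.06. Over all genes 2.96% were 2-fold higher than shScr and 4.48% lower, and against parental 0.862% and 3.04%. PCNA was 1.03 higher on shScr than on parental, and it was named after its values were seen.

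**Figure D3:**
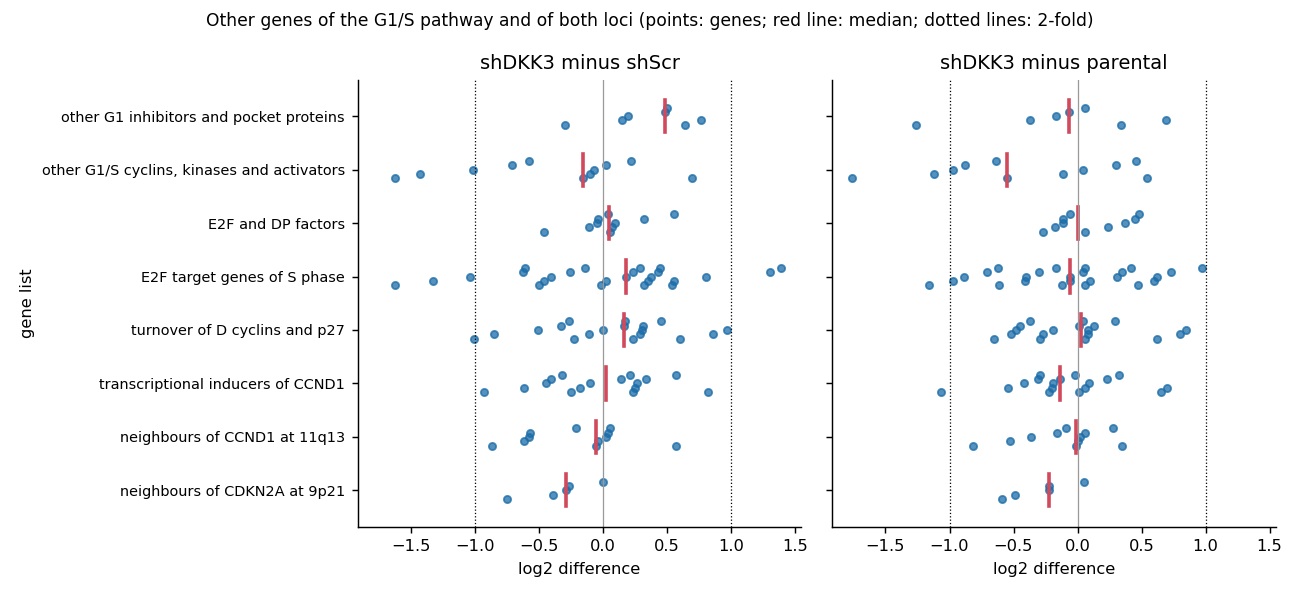
Log2 differences of shDKK3 to shScr and to parental for the genes of 6 pathway lists and of the 11q13 and 9p21 loci (points are genes, red lines are list medians, dotted lines are 2-fold). The list of other cyclins, kinases and activators reaches down to -1.63 and -1.76, and the E2F and DP factors stay within 0.55 of 0. These are normalised values, in which the offset shrinks dim differences.

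Genes that control the turnover of D cyclins and p27 included 18 that could be compared. After normalisation 0 were 2-fold higher than on shScr, beside 2.96% of all genes. CUL3 (-1.01), a ubiquitin ligase scaffold, was 2-fold lower, beside 4.48%. The list medians were 0.17 against shScr and 0.02 against parental. In deposited values, in the order parental, shScr, shDKK3, DDB1 was at 826, 657 and 1780 and UBAC1 at 512, 461.5 and 1095.5. There both were more than 2-fold higher than on either control. USP2 and CRYAB, which were dim, were more than 2-fold higher than on shScr, and CUL3 stayed 2-fold lower. The authors' table had 14.8% of all genes 2-fold higher than shScr and 10.8% lower. Among the known transcriptional inducers of CCND1, 0 of 16 were 2-fold apart from shScr after normalisation, beside 7.44% of all genes. Their median was 0.02. Against parental 1 of 17 was 2-fold apart, beside 3.9% of all genes. This was ETS1 (-1.07), an ETS family factor, at -0.93 against shScr. In deposited values, in the same order, ETS1 was at 141, 115 and 43.8, TEAD1 at 26.2, 42.6 and 16.6, and HRAS at 566, 471 and 1085.5. There ETS1 and TEAD1 were more than 2-fold lower than on shScr, and HRAS and the dim LEF1 more than 2-fold higher. All but ETS1 and CUL3 were named after their values were seen.

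After normalisation, where the offset shrinks dim differences, the neighbours of CCND1 at 11q13 did not share the size of its difference. Of 11 genes 0 were 2-fold apart from either control, beside 7.44% of all genes against shScr and 3.9% against parental. Their medians were -0.06 and -0.01. PPFIA1 was at -0.87 against shScr and -0.53 against parental and ORAOV1, now named LTO1, at -0.62 and -0.09. CTTN, which encodes cortactin, was at -0.58 and -0.36 and ANO1, a chloride channel, at -0.57 and -0.82. FADD, an adaptor of death receptors, was at 0.02 and 0.00 and FGF19 at 0.57 and 0.35. In deposited values, in the order parental, shScr, shDKK3, PPFIA1 was at 134, 167 and 76.4 and ANO1 at 69.1, 46.7 and 21.1. There both were more than 2-fold lower than on shScr, as CCND1 was, and ANO1 also than on parental. MYEOV was too, but it was below the detection limit on shDKK3. FGF19 was higher, at 107, 79.0 and 140. On that scale some neighbours thus matched the size of the CCND1 difference. At 9p21, MTAP, the enzyme gene beside CDKN2A, was detected on all arrays, at 376 on the parental, 415 on the shScr and 260 on the shDKK3 array in deposited values. It was at -0.75 against shScr and -0.49 against parental, the opposite side from CDKN2A. KLHL9 was at -0.39 and -0.22, and after normalisation 0 of 5 genes compared at this locus were 2-fold apart. In deposited values, in the same order of arrays, the dim KLHL9 was at 14.2, 18.4 and 6.9 and IFNE at 12.6, 12.3 and 5.3. There both were more than 2-fold lower than on either control.

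**Figure D4:**
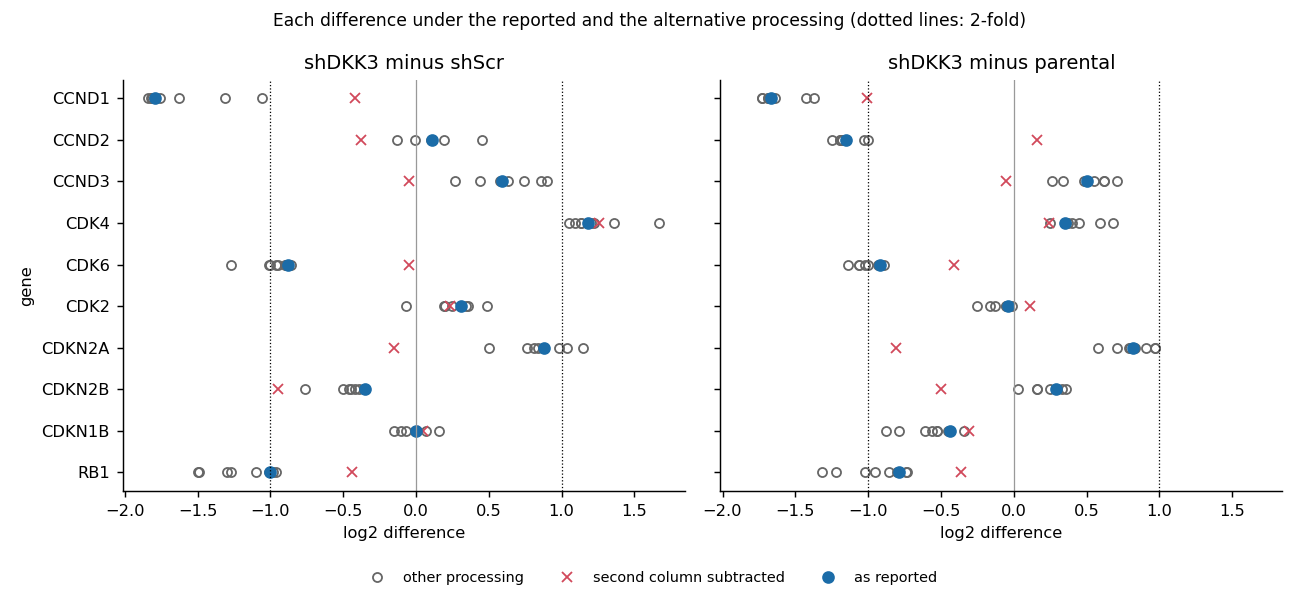
Log2 differences of the 10 genes to shScr and to parental as reported (filled), under other background corrections, scalings and probe rules (open circles) and with the second deposited column subtracted (crosses). CCND1 stays at or below -1.06 and CDK4 at or above 1.05 against shScr apart from the cross of CCND1 at -0.42, while the crosses of CCND2, CCND3, CDK2, CDKN2A and CDKN2B change sign against parental.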

How the data were processed

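Per the file headers, the deposited intensity values are median spot brightness, combined from scans at 3 gains; RNA was amplified and Cy5-labelled, per the labels' protocols. The authors' deposited table equals a straight line of that intensity on each array (slopes of 1.41, 1.83 and 1.04), worked out from the values; how it was made is not given in the sources used here. Spot medians were corrected with normexp (limma 3.58.1, R 4.3.3, offset 50, which shrinks dim differences), put on the log2 scale and quantile normalised over 24451 gene probes, 9 flagged probes being left out. The steps were checked on simulated data. Symbols came from the platform annotation (1 symbol for 20228 probes, several for 0, none for 4223); of 17614, 14990 are current in RefSeq, 2538 are an older synonym and 86 had no single match. A gene was represented by its brightest probe and compared where detected on the brighter array. Members and lists were chosen with earlier results of these data known. Named list genes are up to 4 per list, at least 2-fold from a control and ranked by the smaller difference, otherwise the 2 furthest from shScr; genes of the 11q13 and 9p21 lists may all be named. There was no test, with 1 array per condition. The number of arrays limits precision: the SD (log2) among 24 copies of 1 control spot ran from 0.084 to 0.136 on an array. For another control spot it ran from 0.091 to 0.192, highest on shScr. This is spot noise alone, and both control spots are bright (medians of 11330 or more), so noise of dim spots is not covered. Alternatives were other background corrections, scalings, probe rules, filters and thresholds.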

Additional observations from a re-analysis of the deposited data

How the results depend on the processing

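The number of arrays and the signal over background limit all values, most of all for CDKN1B and RB1, whose spots on shDKK3 were less than 2 times the limit. Over 10 alternatives CCND1 stayed lower on shDKK3 than on each control (-1.84 to -0.42 against shScr, -1.73 to -1.01 against parental), CDK4 higher than shScr (1.05 to 1.67), CDK6 lower (-1.27 to -0.05) and RB1 lower (-1.50 to -0.44). Subtracting the second deposited column, which correlates with its own spot (r from 0.886 to 0.932 over gene probes) and had a median of 79.0% to 84.9% of the brightness of detected spots, gave the values nearest 0 for CCND1, CDK6 and RB1. It also put CDKN2A at -0.15 against shScr and -0.81 against parental, and CCND2 at 0.16 on shDKK3 and 0.55 on shScr against parental, the opposite sign. In the authors' table CCND1 was at -1.06 against shScr. Scaling to the 75th percentile and the authors' table move the median of all genes against shScr to 0.37 and 0.32, and against parental to 0.26 and 0.11. Lower genes were 60.2% of those 2-fold apart from shScr, and this share was 84.9% after median scaling, 71.0% after cyclic loess and 42.3% in the deposited table of the authors. Against parental the share was 77.9%, against 91.8% with scaling to the median and 65.9% to the 75th percentile. Between the controls it was 70.9%, against 53.4% with scaling to the median and 85.3% in the authors' table.

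Shares of all genes compared that passed the same threshold are in brackets. Members 2-fold lower than shScr were 1 as reported (4.48%). They were 2 with an offset of 16 (7.7%), with no background correction (4.6%) or in the authors' table (10.8%). They were 3 with subtraction of the blank mean (14.3%), scaling to the median (8.33%) or cyclic loess (5.77%), and 0 with the second column (2.69%). Members 2-fold higher than shScr were 1 as reported (2.96%) and 2 with subtraction (9.45%) or in the authors' table (14.8%). Members 2-fold lower than parental were 2 as reported (3.04%). They were 4 with subtraction (10.9%) or an offset of 16 (5.23%), and 1 with the second column (1.66%). List genes 2-fold higher than shScr were 2 as reported (2.96%) and 10 with subtraction (9.45%). They were 5 with scaling to the 75th percentile (3.54%), 15 in the authors' table (14.8%) and 4 with the second column (2.45%). List genes 2-fold lower than shScr were 6 as reported (4.48%). They were 3 with the second column (2.69%) or with the length trend removed (4.54%), the last added after the data were seen. Against parental, higher list genes were 0 as reported (0.862%) and 3 with subtraction (4.69%) or the second column (1.46%). They were 1 with an offset of 16 (1.66%), 2 with the 75th percentile (1.34%) and 5 in the authors' table (4.52%). Lower ones were 5 as reported (3.04%), 9 with subtraction (10.9%) and 8 in the authors' table (10.9%). Between the controls, higher list genes were 1 as reported (0.404%) and 3 with subtraction (2.68%). They were 2 with an offset of 16 (0.7%), in the authors' table (1.08%) or with the second column (1.51%). They were 0 with the 75th percentile (0.418%) or cyclic loess (0.397%). Lower list genes were 1 as reported (0.983%), 7 with subtraction (3.87%) and 2 with an offset of 16 (1.66%). They were 10 in the authors' table (6.27%) and 6 with the second column (1.43%). At 1.5-fold the members higher and lower were 3 and 3 against shScr, 1 and 4 against parental and 1 and 2 between the controls, and the list genes 10 and 12, 10 and 13, and 4 and 8. Over all genes the shares higher and lower at 1.5-fold were 9.54% and 11.5%, 6.83% and 9.38%, and 3.03% and 3.78%. At 3-fold the members were 0 and 1, 0 and 1, and 0 and 0, and the list genes 0 and 1, 0 and 1, and 0 and 1. Over all genes the shares at 3-fold were 0.383% and 0.739%, 0.0869% and 0.247%, and 0.0673% and 0.141%. Except where a threshold changed them by construction, the cause was not tested. No paired analysis was possible because each condition has 1 array.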
